A study of Triticum aestivum with 2 samples.

Results

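The far spikelet MHSs are MNase hypersensitive sites (MHSs) called in the spikelet of common wheat at a distance of 5000 bp or more from any MHS called in the seedling. They were chosen by the measured positions of the peaks in both lists. A spikelet MHS was a member when the nearest seedling MHS on the same sequence part began or ended at least 5000 bp from its own edge. The rule found 35745 members among 277119 spikelet MHSs, or 12.9% (95% Wilson interval 12.8 to 13.0, which covers counting error only). The other spikelet MHSs fell into 186718 that overlapped a seedling MHS by at least 1 bp, called overlapping here, and 54656 that overlapped none but lay under 5000 bp away, called near unique. Seedling read depth at these sites was not analysed here, so a member is a site without a called seedling MHS nearby, which is not the same as a site without seedling reads. Both tissues came from wild-type plants of the cultivar Chinese Spring without treatment, and both were cross-linked with formaldehyde. The spikelets were at booting stage. The seedlings were 10 days old by the labels, while the methods give a slightly younger age and speak of above-ground parts at one place and of whole seedlings at another. The authors merged 2 biological replicates per tissue before peak calling, so that each tissue has 1 list, no value below has a replicate check, and no test was made.

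MNase, or micrococcal nuclease, cuts DNA that is not protected by nucleosomes or other proteins. In MH-seq the small fragments of a digest are sequenced, and reads pile up at DNA that was open to the enzyme. In plants such open sites hold many promoters, enhancers and other cis-regulatory elements where transcription factors bind, and a part of them is open in some organs and closed in others. Common wheat is a hexaploid with the subgenomes A, B and D. Its chromosomes carry most genes towards their ends, while the regions around the centromeres are rich in transposable elements and poor in genes. The booting spikelet holds developing florets, with anthers and ovaries, and the seedling is mainly leaf tissue. Each list averages over all cells of its organ, so that a site open in a few cells and a site weakly open in many cells cannot be told apart.

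The seedling list held 289446 MHSs. The lowest local background of the lists was 2.64 reads in the seedling and 2.60 in the spikelet, which corresponds to 185 M and 182 M reads if the peak caller extended reads by 200 bp over 14 Gb. Differences in depth between the lists were thus small under these settings. Coordinates are those of version 1.0 of the IWGSC reference, in which each of the 21 chromosomes is cut into 2 sequence parts, and they are counted from 1 within a part. Every part held seedling MHSs, so every spikelet MHS had a distance. Genes and sequences at the MHSs were not analysed here, and neither was any marker gene of either organ.

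The members lay mostly well beyond the limit. Their median distance to a seedling MHS was 17.1 kb, with quartiles of 8.29 and 44.98 kb. A distance of 10 kb or more was held by 24236 members (67.8%), of 50 kb or more by 8131 (22.7%) and of 100 kb or more by 3595 (10.1%), and 75 lay 500 kb or more away. The count of members therefore depended strongly on the limit, and it was 16251 with a limit of 20 kb. The farthest member was on chromosome 3A, part 1, bases 3091748 to 3092074, at 1149 kb from a seedling MHS. It was a weak MHS with a fold enrichment of 3.88 and a pileup of 13 reads at the summit, and it had no other spikelet MHS within 1149 kb. The second farthest, on 1B, part 1, bases 79501460 to 79501736, was alike, with a distance of 927 kb, a fold of 3.30 and a pileup of 13 reads. The third, on 1A, part 1, bases 299 to 1304, lay 806 kb from a seedling MHS but only 4.11 kb from the next spikelet MHS, and its fold was 5.07. The first pair thus stood alone in both tissues, and the last belonged to a group of spikelet MHSs.

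At the limit itself the median width changed little, while the median fold was higher inside the limit than outside it. Between 5000 and 5499 bp there were 1840 members with a median fold of 4.01 and a median width of 290 bp, and between 4500 and 4999 bp there were 1979 near unique MHSs with 3.88 and 287 bp. Just inside were an MHS of 278 bp and fold 4.15 on 2B, part 1, bases 39727976 to 39728253, and one of 353 bp and fold 4.93 on 3A, part 2, bases 283074108 to 283074460, each exactly 5000 bp away. Just outside, at 4999 bp, were an MHS of 205 bp and fold 3.48 on 3D, part 2, bases 47205726 to 47205930, and one of 359 bp and fold 3.42 on 4A, part 2, bases 150508158 to 150508516.

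The sequence in which a member could lie was large. Stretches at least 5000 bp from every seedling MHS added up to 11965 Mb, or 85.1% of the 14065 Mb up to the last MHS of each part, in 148642 pieces. On this sequence the spikelet list had 2.99 MHSs per Mb, against 115 per Mb on the remaining sequence near seedling MHSs. Of the stretches, 25627 (17.2%) held a member. A single member was found in 19288 of them, and 6339 held 2 or more. The share of stretches with a member rose with length, from 4.18% of those under 5 kb to 56.0% of those of 500 kb or more. Per Mb the order was the opposite, and the density fell from 19.6 members per Mb in stretches under 5 kb to 6.19 between 20 and 50 kb and 1.58 at 500 kb or more. Far spikelet MHSs were thus densest in the short stretches, which lie where seedling MHSs are close to each other. When the lists were exchanged, the same rule found 57804 far seedling MHSs, or 20.0% of the seedling list, at 4.75 per Mb of the corresponding sequence. With all deposited peaks counted, the far spikelet MHSs were the smaller set on 21 of 21 chromosomes. The far seedling set held more weak calls, however. Its share with a q above 0.01 was 7.21%, against 2.27% in the far spikelet set. Only 15950 far seedling MHSs (27.6%) passed a q limit of 1e-05, while 19667 far spikelet MHSs (55.0%) did. Under that limit the far spikelet set was thus the larger one, with distances still taken to all MHSs of the other list. The limit also kept more of the whole spikelet list, 81.1%, against 66.1% of the whole seedling list. The larger count is therefore not particular to the far set.

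**Figure D1:**
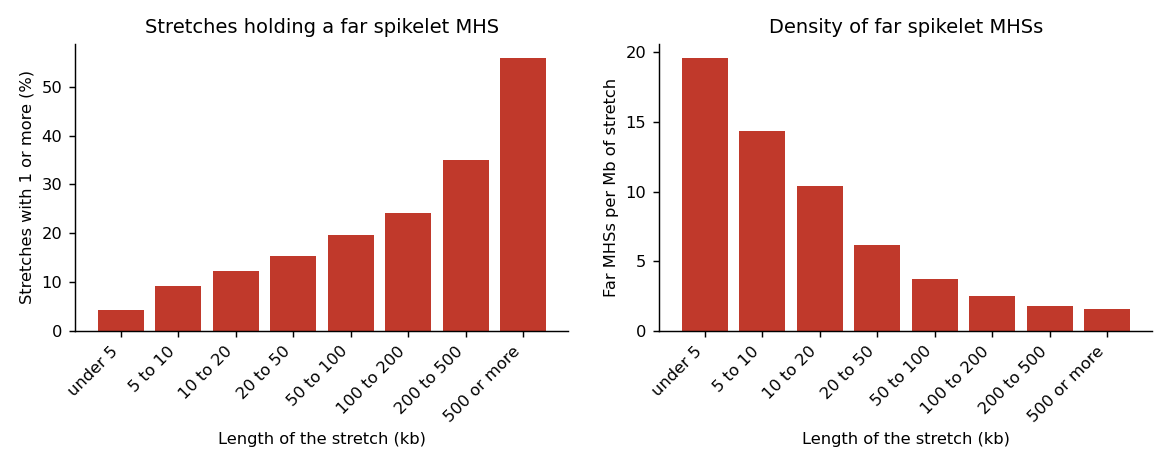
Stretches of sequence at least 5 kb from every seedling MHS, in 8 classes of length (kb). Left, the share of stretches that hold 1 or more far spikelet MHSs, which rises from 4.18% to 56.0%; right, the number of far spikelet MHSs per Mb of stretch, which falls from 19.6 to 1.58.

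Far spikelet MHSs were narrow. Their median width was 266 bp with quartiles of 214 and 329 bp, against 282 bp in the near unique and 374 bp in the overlapping MHSs of the same list. The members covered 10.5 Mb of the 105.7 Mb covered by the list. Of the members, 15.3% (14.9 to 15.7) had exactly 200 bp, the smallest width in the lists and the same as the assumed read extension, against 7.53% of the near unique and 1.95% of the overlapping MHSs. Widths of 1 kb or more were held by 89 members (0.249%), against 1.69% of the overlapping MHSs. The median width was below that of the overlapping and of the near unique MHSs on 21 of 21 chromosomes. The widest member had 3126 bp, on 2D, part 1, bases 272563763 to 272566888, with a fold of 3.46 and a high local background of 20.9 reads. The next in width were 2255 bp on 1D, part 1, bases 180363559 to 180365813, with a fold of 4.91, and 2213 bp on 4D, part 1, bases 270703804 to 270706016, with a fold of 4.94. All 3 lay on subgenome D. The far seedling MHSs had almost the same median width of 267 bp.

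In enrichment the members stood between the other sets. The deposited fold divides the summit pileup by the local background, after 1 is added to each. Its median was 3.92 in the far, 3.74 in the near unique and 4.94 in the overlapping spikelet MHSs, and this order was found on 21 of 21 chromosomes. The members had the fewest reads at the summit, with a median pileup of 19 against 27 and 35, and also the lowest local background, with a median of 3.80 reads against 6.34 and 5.84. At the lowest background that the list allows were 23.8% of the members (23.3 to 24.2), 2.08% of the near unique and 2.22% of the overlapping MHSs. The rule keeps members out of the sequence near seedling MHSs, and its part in their low background was not tested. Of the members, 19667 (55.0%) had a q of 1e-05 or less, against 81.1% of all spikelet MHSs, 71.5% of the near unique and 88.9% of the overlapping ones. Between folds of 3 and 4 the members had a median pileup of 15 reads, against 25 in both other sets. From a fold of 15 on they had 91.5 reads, against 111 in the near unique and 87 in the overlapping MHSs.

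At matched fold the members were narrower than the overlapping MHSs, but the reads were not matched. Between folds of 4 and 5 the median width was 274 bp in the far and 350 bp in the overlapping MHSs, between 6 and 8 it was 341 against 417 bp, and between 10 and 12 it was 370 against 458 bp. The near unique MHSs had 299, 346 and 379 bp in these bins. The median pileups in them were 20, 31 and 47 reads in the far set, against 30, 43 and 60 in the overlapping set.

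**Figure D2:**
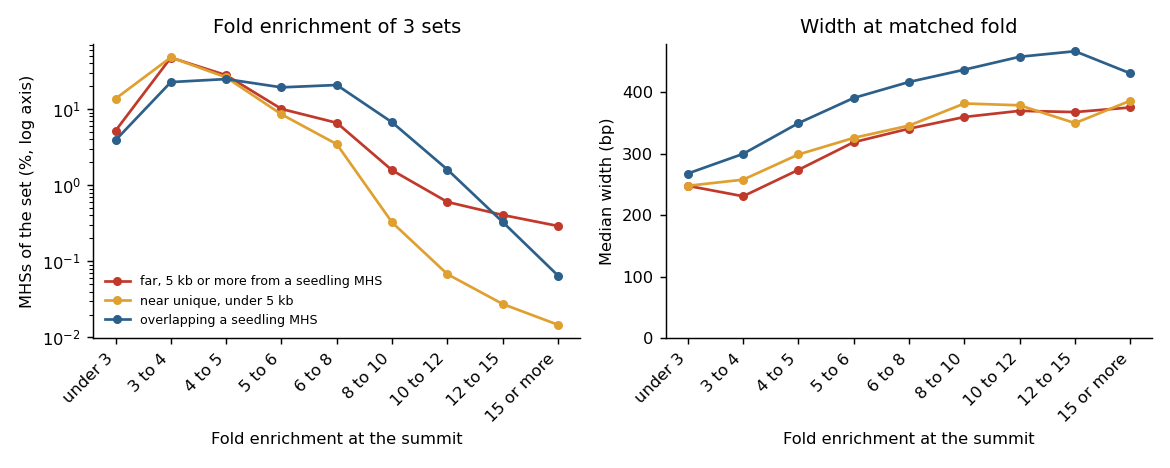
Fold enrichment and width of the 3 sets of spikelet MHSs. Left, the share of each set (%, log axis) per bin of fold, where the far set lies under the overlapping set from a fold of 5 to 12 and above it from 12 on; right, the median width (bp) in the same bins, with 341 bp in the far and 417 bp in the overlapping set between folds of 6 and 8.

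The far set had a long tail of strong MHSs. The limits of fold used here and below were picked after the values were seen. A fold of 8 or more was reached by 1025 members, or 2.87% (2.70 to 3.05). This is below the 6.31% of all spikelet MHSs but above the 0.434% (237 MHSs) of the near unique set. At a fold of 12 or more the order turned, and 249 members, or 0.697% (0.616 to 0.788), reached it against 0.363% of all spikelet MHSs, 0.393% of the overlapping and 0.0421% of the near unique set. From a fold of 15 on, 104 of the spikelet MHSs were far, 8 near unique and 121 overlapping, so that 44.6% of the strongest MHSs of the spikelet were at least 5000 bp from any seedling MHS. The far share was lowest, at 4.24%, between folds of 8 and 10. The far seedling MHSs had no such tail. A fold of 8 or more was held by 85 of them (0.147%) and a fold of 12 or more by 1, with the highest at 12.1.

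The largest fold of a member, which was also the largest of the list, was 34.6, in an MHS of 376 bp on 2A, part 1, bases 136687293 to 136687668. Its summit had 183 reads over a background of 4.32, and another member lay 5.27 kb away. The next was a fold of 26.9 with 203 reads on 3D, part 2, bases 121137104 to 121137506, 403 bp wide, with another member at 1.84 kb. The third was a fold of 26.0 with 128 reads on 7B, part 1, bases 392268537 to 392268915, 379 bp wide and 7.13 kb from a seedling MHS. Their widths lay close together and their local backgrounds were 4.32, 6.58 and 3.96 reads, against a median of 5.68 in the list.

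The strong members differed from the other members in more than their fold. Their median width was 365 bp, with quartiles of 338 and 445 bp, against 262 bp in the other members. The summit lay near the middle, with quartiles at 45.9% and 53.2% of the width, against 37.0% and 59.3% in the other members. Most of them stood alone. Among the strong members, 847 (82.6%) had no other member within 10 kb, against 71.9% of all members. The median distance of the strong members to the nearest spikelet MHS of any kind was 24.3 kb, against 10.8 kb in the other members. They were also farther from seedling MHSs, with a median of 29.8 against 16.8 kb. From a fold of 15 on, both distances were longer still, with medians of 46.8 kb to a seedling MHS and 41.3 kb to a spikelet MHS. The overlapping MHSs with a fold of 15 or more had a spikelet neighbour at a median of 17.1 kb. Strong MHSs of the other sets were also wider and more isolated than their whole set. With a fold of 8 or more, the overlapping MHSs had medians of 443 bp and 8.61 kb to a spikelet MHS. All overlapping MHSs had 374 bp and 2.75 kb. The near unique MHSs had 376 bp and 4.14 kb at that fold, against 282 bp and 1.53 kb in all of them. The local background of the strong members was low, with a median of 3.56 reads, and only 3 of them had 10 reads or more. A high fold favours a low background by its construction.

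Members were sparse in the spikelet list as a whole. The median distance of a member to the nearest spikelet MHS of any kind was 11.1 kb, against 1.53 kb in the near unique and 2.75 kb in the overlapping MHSs. The rule itself sets a part of this, since no overlapping MHS can lie directly beside a member. The nearest spikelet MHS was another member in 39.7% of cases, an overlapping MHS in 46.4% and a near unique one in 13.9%. Within 1 kb, 4162 members (11.6%) had a spikelet neighbour, and 3514 (9.83%) had none within 100 kb, against 0.897% of the near unique and 2.30% of the overlapping MHSs. Between neighbouring members of the same part the median gap was 191 kb, with quartiles of 36.8 and 522 kb. The smallest gap had 65 bp and the largest 7.75 Mb. Short gaps were nevertheless frequent, with 4470 of 35703 gaps (12.5%) at 5 kb or less. In the far seedling MHSs, which were denser, 8.93% of the gaps were that short.

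Far spikelet MHSs formed larger groups than far seedling MHSs did. When members with gaps of 10 kb or less were joined, 25688 (71.9%) stood alone, 6432 (18.0%) formed pairs and 3625 (10.1%, 9.83 to 10.5) belonged to 951 clusters of 3 or more. With these limits of distance and gap, no overlapping or near unique MHS could lie inside a cluster. In the far seedling MHSs, 4.87% (4.70 to 5.05) were in clusters of 3 or more, and the clustered share was higher in the spikelet on 21 of 21 chromosomes. The largest cluster had 33 MHSs in the spikelet and 8 in the seedling. Clusters of 10 or more were 16 in the spikelet, with 240 members, and 0 in the seedling. The spikelet share was 6.48% when the gap was limited to 5 kb and 14.1% at 20 kb.

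The local background rose with the number of MHSs in a cluster, and the fold was lower in clusters of 3 or more than in single or paired members. The median fold was 3.93 in single members, 4.01 in pairs, 3.82 in clusters of 3 to 4, 3.37 in clusters of 5 to 9 and 2.64 in clusters of 10 or more. The median background was 3.20, 4.90, 6.24, 9.13 and 25.3 reads in these classes, and the pileup at the summit rose with it, from 17 to 23, 27, 37 and 69 reads. Strong members were 2.87% of all members and 3.30% of the single ones. In clusters of 3 or more they were 34 of 3625 (0.938%), and in clusters of 10 or more 0 of 240. By its construction the fold falls as the background rises at the same pileup, so a strong member needs more reads in such clusters. The lower folds and the counts of strong members are therefore not independent of the background. The background of 13 of the 16 largest clusters was more than 2 times the list median of 5.68 reads, and in the other 3 it was 0.870 to 1.35 times. The part of the background in the size of these clusters was not tested. The methods name no control library, and the part of neighbouring MHSs in each other's background was not tested either.

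The cluster with the most members had 33 MHSs over 107 kb on 5D, part 2, bases 51307623 to 51414760. Its median fold was 2.19, its median background 37.5 reads, and its nearest seedling MHS was 6.59 kb away. The second held 25 MHSs over 71.6 kb on 1D, part 1, bases 254433179 to 254504772, with a fold of 2.56, a background of 28.0 reads and no seedling MHS within 96.6 kb. The third was of another kind. It held 21 MHSs over 83.8 kb near the start of 1A, part 1, bases 316556 to 400368, with a median fold of 4.25 and a background of 4.94 reads, 0.870 times the list median. Clusters of 18 MHSs lay on 3A, part 2, bases 218772529 to 218812886, with a fold of 3.09 and a background of 17.4 reads, and on 7D, part 1, bases 231570510 to 231625161, with a fold of 2.39 and a background of 40.2 reads. Subgenome D had 11 of the 16 clusters of 10 or more with 163 of their 240 members, A had 3 and B had 2. Of all 35745 members, 10983 were on D. Some of the 16 clusters were close neighbours and may not be separate loci. Examples are those between bases 6197334 and 6271049 of 5D, part 1, and between 231529143 and 231625161 of 7D, part 1.

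**Figure D3:**
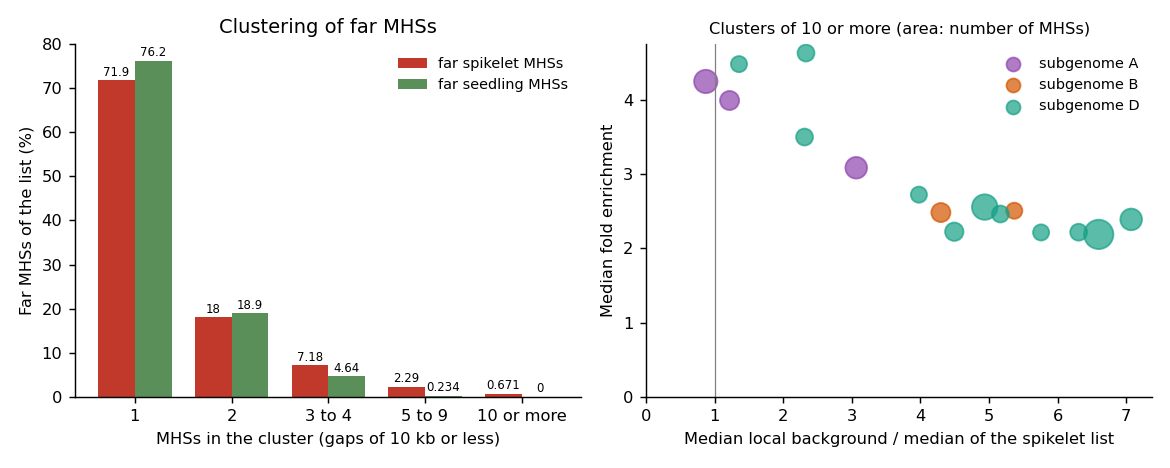
Clusters of far MHSs joined over gaps of 10 kb or less. Left, the share of far spikelet and far seedling MHSs (%) by the number of MHSs in their cluster, with 0.671% of the spikelet and 0 of the seedling set in clusters of 10 or more; right, the 16 spikelet clusters of 10 or more by their median local background relative to the spikelet list and their median fold, coloured by subgenome, with the point area showing the number of MHSs and a line at a ratio of 1.

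Along the chromosomes the members were most frequent at both ends. The outermost 10% at either end held 13210 members, or 37.0% (36.5 to 37.5), against 37.7% (37.3 to 38.1) of the near unique and 31.6% (31.4 to 31.9) of the overlapping MHSs. Of the sequence in which a member could lie, only 17.7% was in these ends. The density was thus 6.25 members per Mb of that sequence in the ends and 2.29 in the rest, a ratio of 2.73. In 5% bins it was highest at the ends, with 7.66 and 7.91 members per Mb, and lowest between 35% and 40% of the length, with 1.68. The share in the ends was above that of the overlapping MHSs on 18 of 21 chromosomes, with 4B, 4D and 6B as the exceptions. It ranged from 28.4% on 5D to 44.1% on 1A.

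The end share depended on the distance limit. With 10 kb it was 32.7% and with 20 kb it was 26.3%, which is below the 31.6% of the overlapping MHSs. Members close to seedling MHSs were thus more often at the ends, and the more distant ones were spread more evenly. The share of the available sequence in the ends is given here only for the limit of 5000 bp, so these shares have no matching denominator. As a share of all spikelet MHSs in a bin, the members were frequent at both ends and again near the middle. They made up 16.1% in the first bin and 14.5% in the last, fell to 11.3% between 15% and 20%, rose to 18.6% between 35% and 40%, where all sets were sparse, and were lowest at 9.73% between 80% and 85%.

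Strong members were spread differently from the other members. Of those with a fold of 8 or more, 25.4% (22.8 to 28.1) lay in the ends, against 37.3% (36.8 to 37.8) of the other members, and the share was lower on 21 of 21 chromosomes. The strong overlapping MHSs had 24.9% (24.2 to 25.5). Per Mb of the available sequence there were 0.123 strong members in the ends and 0.0776 in the rest. From a fold of 15 on, 16.3% were in the ends. With a fold of 6 or more as the limit the share was 34.4%, close to that of all members. Strong members were 2.05% of the members in the first 5% of the chromosomes and 4.89% between 30% and 35%.

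**Figure D4:**
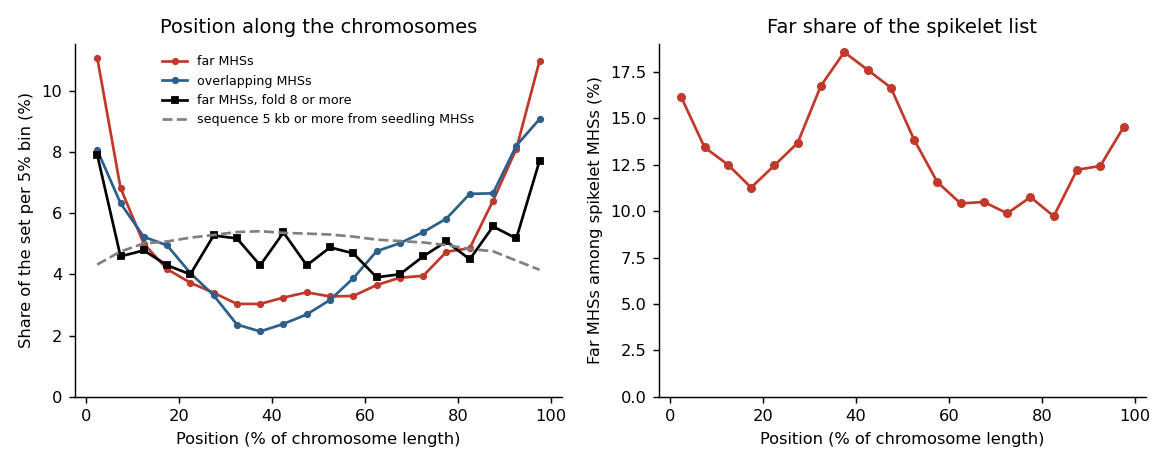
Position along the chromosomes in 5% bins, from the start (0%) to the end (100%). Left, the share (%) per bin of far MHSs, overlapping MHSs, far MHSs with a fold of 8 or more, and the sequence at least 5 kb from every seedling MHS; right, the far share of all spikelet MHSs, which peaks at 18.6% between 35% and 40% and at 16.1% in the first bin.

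Subgenome B had the largest number of members and D the highest density. There were 11902 members on A, 12860 on B and 10983 on D. Per Mb of chromosome these were 2.41, 2.48 and 2.78 members, and per Mb of sequence far from seedling MHSs 2.81, 2.90 and 3.32. On both scales D was above A and above B in 7 of 7 homoeologous groups. As a share of the spikelet MHSs of the subgenome, however, the members were least frequent on D, with 12.4% (12.2 to 12.7), against 12.9% (12.7 to 13.1) on A and 13.4% (13.1 to 13.6) on B. All spikelet MHSs were also densest on D, with 22.4 per Mb against 18.7 on A and 18.6 on B. The density of members on D relative to A was 1.15 (1.12 to 1.18), and it was 1.13 when each cluster or single member was counted once. Width and fold hardly differed between the subgenomes, with median widths from 264.5 to 268 bp and median folds from 3.90 to 3.94.

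By chromosome, the members ranged from 1213 on 4D to 2078 on 3B. Their share of the spikelet MHSs was lowest on 2D with 11.6% and highest on 6B with 13.96%, and 1B and 4A were within 0.1 points of the latter. Group 4 had another order than the other groups, with 13.9% on 4A, 12.5% on 4D and 12.1% on 4B. In the other 6 groups B had the highest share. Per Mb of chromosome, 7D had the highest density with 3.07 members and 4B the lowest with 1.95. The clustered share of the members was highest on 5D with 15.4% and lowest on 4B with 6.55%.

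Strong members were least frequent on subgenome A. A fold of 8 or more was found in 292 members on A, 415 on B and 318 on D, which is 0.0592, 0.0801 and 0.0805 per Mb of chromosome. B was 1.35 times as dense as A (95% interval 1.17 to 1.57, from counting error only), and had more strong members than A in 7 of 7 homoeologous groups and a higher density in 6. In group 6 there were 30 on 6A, 65 on 6B and 45 on 6D. In group 1 the 3 chromosomes were close, with 37, 42 and 30. Among the overlapping MHSs, those with a fold of 8 or more had another order, with 1.19 per Mb on A, 1.06 on B and 1.23 on D. In the near unique MHSs, however, B was also above A, with 68 strong MHSs on A, 108 on B and 61 on D, and the far seedling MHSs had 19, 34 and 32. The ratio of B to A in the members was 1.15 from a fold of 6, 1.42 from 10 and 1.48 from 12.

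**Figure D5:**
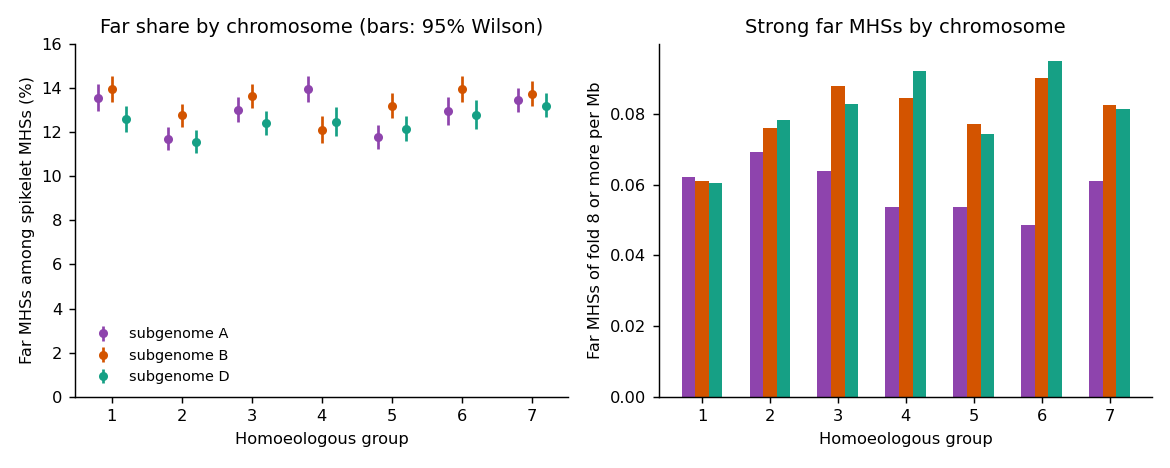
Far spikelet MHSs by homoeologous group and subgenome. Left, their share of all spikelet MHSs (%) with 95% Wilson intervals, from 11.6% on 2D to 13.96% on 6B; right, the number of far MHSs with a fold of 8 or more per Mb of chromosome, where A is lowest in groups 2 to 7.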

How the data were processed

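The deposited lists hold peaks in the narrowPeak layout, without a header. After fastp trimming, the authors aligned reads to IWGSC version 1.0 (bowtie2), dropped duplicates (Sambamba) and reads with mapping quality under 20, and ran MACS2 (2.0 in the submitters' notes; stated q 0.01). Per peak the authors deposited the fold, a ratio of pileup plus 1 to local background plus 1, the −log10 p-value, the −log10 q-value, a score of 10 times the latter, and the summit offset. All deposited peaks were used, also the 813 members with a q above 0.01.

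Distances count the bases between peak edges. Pileup and background were solved from fold and p; the p of all but 1 peak was met within 0.001 on the −log10 scale by a whole pileup. Chromosome length is the end of the last peak of each part. Shares have 95% Wilson intervals, medians order-statistic intervals. Peaks of 1 list are not replicates, so no test was run. Named regions were taken by rule (the 3 largest in fold, width and distance, the 5 largest clusters, 2 peaks on either side of the limit). The members, rules and limits were chosen with earlier results of these data known. The calculations were tested on simulated data. Alternatives changed the distance, the q, the ends, the cluster gap and the denominator. A gene annotation of this build was not used here. Calculations ran in Python 3.11.15 with pandas 2.3.3, scipy 1.17.1 and numpy 2.4.6, and plots were drawn with matplotlib 3.10.9.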

Additional observations from a re-analysis of the deposited data

How the results depend on the processing

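Of 63 alternative values, 23 stayed within the interval of the main value (for counts, within 1.5 times) and 40 moved. The intervals cover counting error only and are narrow. The number of members (35745) was 16251 with a limit of 20 kb and 19667 with a q of 1e-05 or lower. The median width (266 bp) was 272, 257 and 251 bp with limits of 2, 10 and 20 kb, 275 and 307 bp with a q of 0.001 and 1e-05 or lower, and 270 bp with distances to seedling MHSs of q 0.001 or lower. The median fold (3.92) was 3.88 with each of the 3 distance limits, 4.10 and 4.61 with the q thresholds, and 3.94 with the stricter seedling list. The end share (37.0%) was 38.3%, 32.7% and 26.3% with the distance limits, 38.6% and 42.0% with the q thresholds, 38.0% with the stricter seedling list and 35.4% with each cluster counted once. It was 22.0% for the outermost 5% and 57.4% for the outermost 20%. The clustered share (10.1%) was 11.0%, 10.5% and 10.7% with the distance limits, 9.77% with a q of 1e-05 or lower, 11.0% with the stricter seedling list, and 6.48% and 14.1% with gaps of 5 and 20 kb. The density on D relative to A (1.15) was 1.19, 1.11 and 1.09 with the distance limits and above 1 in each alternative run. Among the settings chosen after seeing the data, folds of 6, 10 and 12 gave strong members a median width of 348, 371 and 371 bp, end shares of 34.4%, 22.0% and 19.3%, and, for 6, a ratio of B to A of 1.15. Without the 73 members before the first seedling MHS of 1A, the number, clustered share and D to A ratio stayed within these ranges. Other causes of the shifts were not tested. No paired analysis was possible because the replicates had been merged into 1 list per tissue. The lowest pileup of a called MHS was 9 reads in each set of both lists, and the effect of depth was not tested.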

Other observations

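Several seedling-free stretches held many members without forming 1 tight cluster, and they were picked here after their values were seen. The start of 1A, before the first seedling MHS at base 807294, had 73 members, of which 71 were in clusters of 3 or more and 56 had a q of 1e-05 or lower. Only 1 of them was strong, with a fold of 14.8. On 4D, part 1, 36 members lay between bases 123326066 and 123745151, with a median fold of 3.22 and a background of 1.32 times the list median. On 2B, part 1, 32 members lay between bases 357190415 and 357756758, with a median fold of 3.75 and a background of 1.02 times the list median, and 0 of them were strong. In all, 54 stretches held 10 or more members.

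The seedling MHS nearest to a member was itself far from any spikelet MHS in 27.1% of cases, whereas far MHSs made up 20.0% of the seedling list. It overlapped a spikelet MHS in 58.8% of cases, against 63.0% of that list. The shares of cases count a seedling MHS once for each member nearest to it, while the shares of the list count each MHS once. The part of the rule and of this counting in the differences was not tested. Of the strong members, 180 (17.6%) had no spikelet MHS within 100 kb, against 9.60% of the other members, and 154 had no seedling MHS within 100 kb.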
